A study of Mus musculus with 16 samples.

Results

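The nucleic acid-sensing Toll-like receptors of the endosome and the proteins that bring them there and hold them there were followed as 8 genes: the receptors Tlr3, Tlr7, Tlr8, Tlr9 and Tlr13, the trafficking chaperone Unc93b1, the folding chaperone Cnpy3 and the endolysosomal transporter Slc15a4. They were taken by symbol from the 24001 gene rows of the deposited expression table, and each matched 1 row. The set was drawn up with earlier results of these data known, while the rule itself, a list of symbols, uses no measured value. All 8 passed the filter on low values that left 11347 genes to test.

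Endosomal TLRs bind RNA or DNA that reaches acidic compartments and signal through the adaptor MyD88, or through TRIF in the case of TLR3, to NF-kB and interferon regulatory factors. TLR3 binds double-stranded RNA, TLR7 and, as shown best for the human protein, TLR8 bind single-stranded RNA and its breakdown products, TLR9 binds DNA with unmethylated CpG, and TLR13, which mice have and humans lack, binds bacterial ribosomal RNA. CNPY3 works with the chaperone gp96 in the endoplasmic reticulum to fold most TLRs, UNC93B1 carries the endosomal ones out of it, and SLC15A4 is a histidine and peptide transporter that is needed for TLR7 and TLR9 signalling to IRF5. In lupus-prone mice TLR7 promotes disease, and loss of TLR9 can worsen it.

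The libraries were RNA-seq of bone marrow cultures of NZM2410, a lupus-prone inbred mouse strain, grown with 20 ng/ml GM-CSF plus 10 ng/ml IL-4 and harvested as dendritic cells on day 7. Cells were given vehicle or, for 24 h, the TLR7 ligand loxoribine (200 μmol/ml by the label, whose unit was not verifiable) together with 1 μg/ml of CpG DNA, the TLR9 ligand, so members of the set are themselves the receptors stimulated. The design text contrasts wild type estrogen receptor α (ERα) with ERα short, an AF-1 mutant, and with a null. By the source labels there were 4 arms with 2 vehicle and 2 agonist libraries each, 16 in all: WT and KO (ERα short), both unoperated, and ERKO OVX (ERα short) and Ex3a OVX (ERα null), both ovariectomized at 4 to 8 weeks of age and given a 0.25 mg, 90-day estradiol pellet. Surgery and pellet therefore go together and cannot be told apart between unoperated and ovariectomized arms. Their libraries also differed in estimated depth and in the run of numbers in their titles. The labels used here give neither sex nor age at harvest. Ovariectomized mice are female by that surgery, so sex is unknown for WT and KO only. The title speaks of a conditional knockout in CD11c+ cells while the sample labels name no Cre or floxed allele.

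The labels contradict each other on genotype. The genotype field names the Esr1(tm4.2Ksk) allele, described as leaving no ERα activity, for the vehicle libraries of KO and of ERKO OVX, and the Esr1(tm1Ksk) allele, described as ERα short, for their agonist libraries and for all Ex3a OVX libraries. If the genotype field held, agonist and vehicle in KO and in ERKO OVX would differ in allele as well as in treatment, and Ex3a OVX would carry ERα short. Groups here follow the source labels throughout, and each statement on an arm is about the libraries with that source label. Esr1, the gene of ERα, was at 0.283 to 0.364 FPKM in the 4 Ex3a OVX libraries, 0.982 to 1.16 in ERKO OVX, 0.684 to 1.38 in WT and 1.77 to 2.57 in KO. Vehicle and agonist libraries, to which the genotype field gives different alleles, were at 1.02 and 0.982 against 1.12 and 1.16 FPKM in ERKO OVX and at 2.47 and 2.57 against 2.01 and 1.77 in KO. FPKM over the whole gene does not show which exons were read and so does not identify an allele. Other label notes say that raw read files of some libraries were corrupted, and that experiments were run in triplicate while 2 libraries per group were analysed here.

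Values are FPKM, fragments per kilobase of transcript and per M (mega) mapped fragments, which is a level per length and so can be compared between genes. From the spacing of low values, unoperated libraries held about 36.7 to 43.5 M fragments and ovariectomized libraries about 17.2 to 23.1 M. Ovariectomized pairs of libraries agreed within about sampling noise, and each was averaged to 1 sample. Differences are log2 differences of FPKM + 1 with the standard error (SE) of 1 limma fit over all groups, whose spread comes from the unoperated groups alone. Ovariectomized groups are assumed to vary like these and have no replicate check of their own. The labels do not state whether libraries of 1 group are separate animals or cultures. The p-values then speak only of library-to-library spread, possibly technical. All p-values are limma's, adjusted over all genes tested in the comparison, and "higher" or "lower" is used of differences with an adjusted p under 0.05.

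The genes lie on 6 chromosomes of mm10, and 3 of the receptors are on X. Tlr8 (X, 167242696 to 167264329, minus strand) and Tlr7 (X, 167304929 to 167330558, minus strand) are neighbours 40.6 kb apart, and Tlr13 is elsewhere on X (106143204 to 106160493, plus strand). Tlr9 is on chromosome 9 (106222598 to 106226883, plus strand), Tlr3 on chromosome 8 (45395665 to 45411080, minus strand), Unc93b1 on chromosome 19 (3935186 to 3949340, plus strand), Cnpy3 on chromosome 17 (46735705 to 46752214, minus strand) and Slc15a4 on chromosome 5 (127595664 to 127632897, minus strand). Exons of Tlr3 overlap those of the antisense gene Gm45542, and exons of Slc15a4 those of the antisense gene Gm43474. No source used here states whether the counting used strand, so reads of these overlaps cannot be assigned and the values of Tlr3 and Slc15a4 carry that uncertainty.

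Start-site sequence is shown for the 4 receptors with a promoter given, Tlr9, Tlr8, Tlr13 and Tlr3, and none was given for Tlr7. RefSeq promoters of GRCm38.p6 (the assembly called mm10 by browsers) were given for 6 of the 8 genes, Tlr3, Tlr8, Tlr9, Tlr13, Cnpy3 and Slc15a4, as 300 bases each, from 250 before the start site to 50 after it. The sequences run 5′ to 3′ on the gene's strand, at chr9:106222348-106222647 (plus) for Tlr9, chrX:167264280-167264579 (minus) for Tlr8, chrX:106143025-106143324 (plus) for Tlr13 and chr8:45410331-45410630 (minus) for Tlr3. Capitals mark the core GAGGAA of PU.1, a transcription factor of myeloid cells and B cells, on either strand (TTCCTC on the other), and the AP-1 motif TGANTCA.
Tlr9: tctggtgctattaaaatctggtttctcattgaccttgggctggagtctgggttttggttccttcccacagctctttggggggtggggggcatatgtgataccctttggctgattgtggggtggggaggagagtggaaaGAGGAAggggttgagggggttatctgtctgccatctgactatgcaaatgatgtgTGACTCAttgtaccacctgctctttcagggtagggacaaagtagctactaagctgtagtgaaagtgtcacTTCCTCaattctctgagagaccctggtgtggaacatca
Tlr8: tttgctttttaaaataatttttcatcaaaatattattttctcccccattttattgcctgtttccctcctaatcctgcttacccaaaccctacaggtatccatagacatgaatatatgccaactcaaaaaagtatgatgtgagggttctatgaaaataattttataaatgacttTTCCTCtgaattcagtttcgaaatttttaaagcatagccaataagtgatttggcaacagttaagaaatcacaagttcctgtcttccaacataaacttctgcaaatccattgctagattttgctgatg
Tlr13: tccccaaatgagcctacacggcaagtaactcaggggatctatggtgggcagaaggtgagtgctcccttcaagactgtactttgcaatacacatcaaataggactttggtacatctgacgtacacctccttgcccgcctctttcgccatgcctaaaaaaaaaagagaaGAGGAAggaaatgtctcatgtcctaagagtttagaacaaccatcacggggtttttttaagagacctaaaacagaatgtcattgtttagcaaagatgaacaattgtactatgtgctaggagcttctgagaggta
Tlr3: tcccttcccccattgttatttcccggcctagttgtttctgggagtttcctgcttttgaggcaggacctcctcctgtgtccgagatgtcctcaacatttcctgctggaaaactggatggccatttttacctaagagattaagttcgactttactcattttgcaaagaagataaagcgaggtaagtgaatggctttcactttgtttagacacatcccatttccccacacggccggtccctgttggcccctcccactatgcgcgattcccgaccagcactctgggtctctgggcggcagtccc
PU.1 letters were found in 4 of the 6 promoters, those of Tlr8, Tlr9, Tlr13 and Cnpy3, and in 28.3% of all 27025 promoters of that length. In Tlr9 they occur at -112 and again at 13 relative to the start site, in Tlr13 at -83, in Tlr8 at -77 and in Cnpy3 at -148, each position being that of the first base as printed. The AP-1 letters were in Tlr9 alone of the 6, at -58, and in 7.93% of all promoters. Neither the composite PU.1 and IRF motif (GGAA and GAAA 2 bases apart, in 2.79% of promoters), the ISRE core (GAAA and GAAA 2 bases apart, 3.49%), nor the full estrogen response element (GGTCA and TGACC 3 bases apart, 0.0666%) was found in any of the 6, searched on both strands. The composite motif can overlap the PU.1 core or the ISRE core. A match describes the letters only, and no binding data were used.

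Among the receptors Tlr13 was the most abundant in every library, from 21.9 to 92.1 FPKM (median 50.7), and Tlr3 the least, from 2.11 to 11.3 FPKM (median 3.86). The chaperones were expressed at higher levels than any receptor, Unc93b1 from 142 to 344 FPKM (median 169.7) and Cnpy3 from 96.6 to 193 FPKM (median 108). By mean level, Unc93b1 stood at the 96.2 percentile of the genes tested, Cnpy3 at 94.1, Tlr13 at 86.5, Slc15a4 at 72.2, Tlr7 at 69.5, Tlr8 at 57.9, Tlr9 at 55.8 and Tlr3 at 31.3. From lowest to highest library the receptors spanned more than the chaperones did, 5.36-fold in Tlr3, 4.90-fold in Tlr8, 4.21-fold in Tlr13, 3.91-fold in Tlr9 and 3.09-fold in Tlr7, against 2.43-fold in Unc93b1, 2.18-fold in Slc15a4 and 1.998-fold in Cnpy3.

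Tlr7, the receptor that loxoribine engages, was at 20.7 and 20.9 FPKM in WT vehicle, 14.3 and 14.1 in KO vehicle, 24.3 and 23.2 in ERKO OVX vehicle and 36.8 and 37.2 in Ex3a OVX vehicle. After the agonists the same arms held 16.8 and 16.1, 12.03 and 12.9, 18.3 and 18.3, and 29.5 and 29.96 FPKM. No 2 of the 8 groups overlapped. Libraries of the same group differed by a median of 0.0285 to 0.0352 on the log2 scale, so groups can separate on small differences. The share of all genes whose groups separate likewise was not counted. Overlap or its absence is therefore a description only, here and for the genes and ratios that follow. Ex3a OVX was highest and KO lowest under both treatments, and every arm was lower with agonists than with vehicle.

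Tlr8, its neighbour on X, was ordered differently. With vehicle, WT libraries were at 26.6 and 26.7 FPKM, KO at 15.5 and 15.8, ERKO OVX at 8.17 and 8.48 and Ex3a OVX at 19.1 and 18.7. Agonist libraries held 14.3 and 13.4, 10.05 and 11.2, 5.46 and 6.08, and 12.8 and 12.7 FPKM in the same order. WT vehicle was thus the highest group of Tlr8 and both ERKO OVX groups the lowest, and adjacent groups did not overlap.

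Tlr9, the receptor of CpG DNA, was at 11.8 and 11.99 FPKM in WT vehicle, 16.9 and 16.04 in KO vehicle, 7.13 and 7.51 in ERKO OVX vehicle and 22.8 and 22.95 in Ex3a OVX vehicle. With agonists the levels were 8.32 and 8.39, 12.8 and 12.6, 5.86 and 6.07, and 19.7 and 18.9 FPKM. Arms separated more than treatments in this gene: each arm's vehicle and agonist groups were adjacent in the order of levels, from Ex3a OVX through KO and WT down to ERKO OVX, with no overlap between neighbours.

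Tlr13, the sensor of bacterial ribosomal RNA, was at 54.3 and 55.9 FPKM in WT vehicle, 29.3 and 29.8 in KO vehicle, 61.7 and 60.3 in ERKO OVX vehicle and 92.1 and 91.3 in Ex3a OVX vehicle. Agonist libraries held 45.6 and 44.01, 21.9 and 24.5, 47.00 and 47.2, and 79.7 and 78.2 FPKM. The order of the 8 groups was that of Tlr7, and no neighbours overlapped.

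Tlr3, the double-stranded RNA receptor, was low in unoperated libraries, at 2.71 and 3.21 FPKM in WT vehicle and 2.39 and 2.42 in KO vehicle, and at 2.81 and 2.58 and 2.11 and 2.12 with agonists. ERKO OVX held 4.78 and 4.52 FPKM with vehicle and 4.79 and 4.67 with agonists, and Ex3a OVX 11.3 and 10.8 and 10.6 and 9.98. Vehicle and agonist libraries overlapped in WT and in ERKO OVX. Every Ex3a OVX library lay above every other library.

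Unc93b1, without which endosomal TLRs stay in the endoplasmic reticulum, kept to a narrow band in 3 arms. WT vehicle libraries were at 175 and 178 FPKM and WT agonist libraries at 152 and 149, KO libraries at 162 and 169 and at 142 and 147, ERKO OVX libraries at 171 and 172 and at 154 and 152. Ex3a OVX held 341 and 341 FPKM with vehicle and 344 and 343 with agonists. The Ex3a OVX groups stood far above the rest, and the ERKO OVX and WT agonist groups overlapped.

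Cnpy3, the folding chaperone, was at 114 and 110.4 FPKM in WT vehicle, 101 and 105 in KO vehicle, 122 and 122 in ERKO OVX vehicle and 169 and 167 in Ex3a OVX vehicle. Agonist libraries were at 102 and 100.4, 96.6 and 98.4, 100.2 and 103, and 188 and 193 FPKM. The KO vehicle, ERKO OVX agonist and WT agonist groups overlapped with their neighbours in this order. Ex3a OVX was the 1 arm in which the agonist libraries lay above the vehicle libraries.

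Slc15a4, the transporter, was at 16.7 and 17.6 FPKM in WT vehicle, 19.1 and 18.5 in KO vehicle, 28.3 and 27.3 in ERKO OVX vehicle and 35.5 and 36.5 in Ex3a OVX vehicle. With agonists it was at 17.8 and 17.3, 18.5 and 18.6, 29.8 and 28.8, and 31.1 and 31.7 FPKM. Both ovariectomized arms were above both unoperated arms, the groups of WT overlapped each other and so did those of KO.

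**Figure D1:**
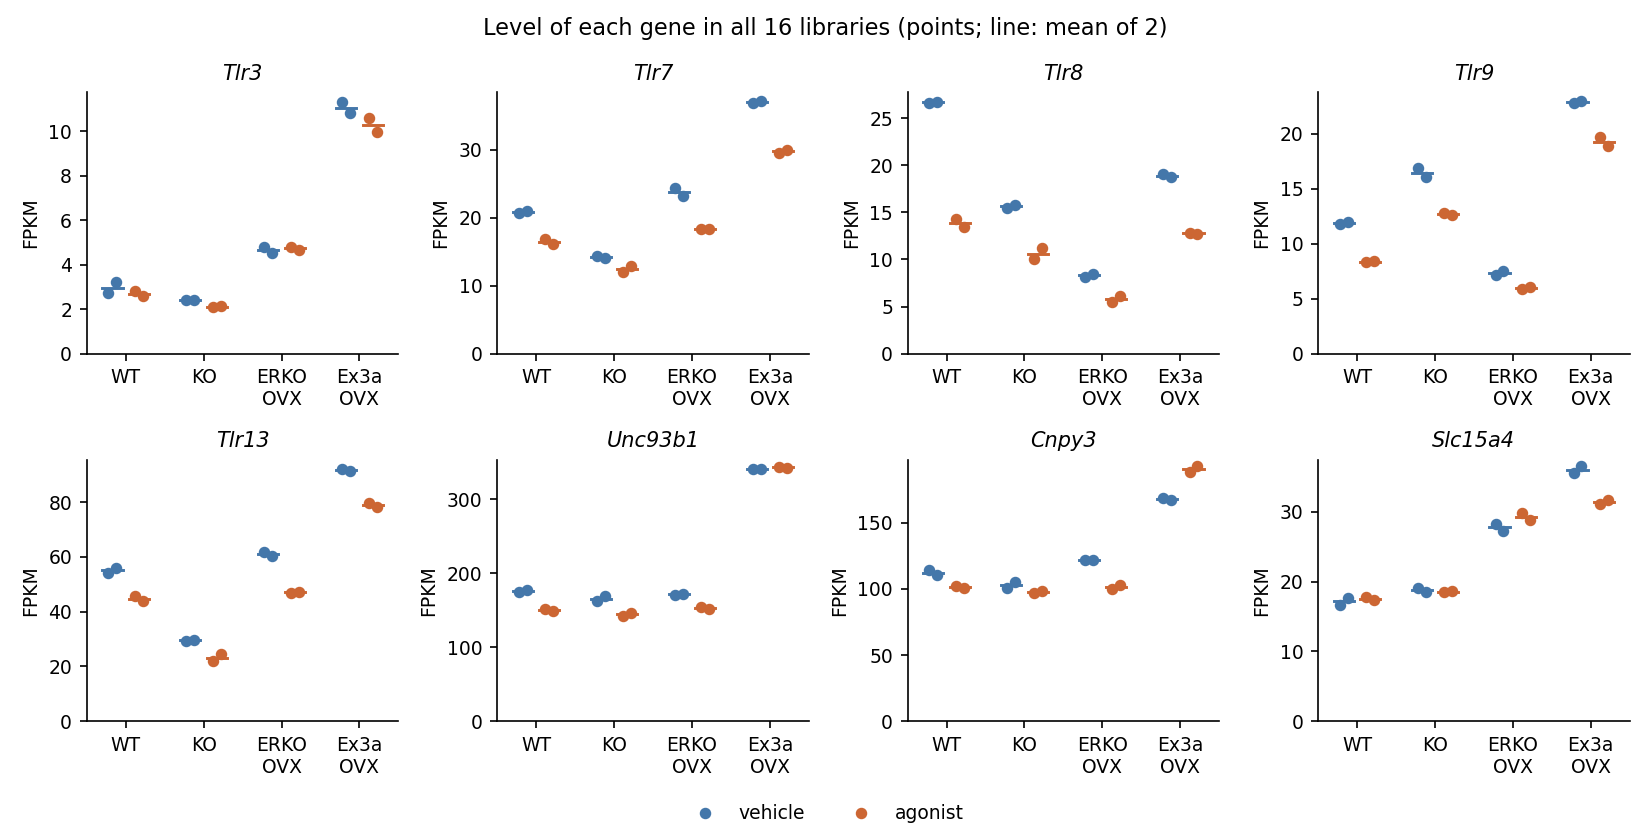
FPKM (vertical axes, from 0) of the 8 genes in all 16 libraries, by arm, with vehicle in blue and agonist in orange; points are libraries and lines the mean of 2. Ex3a OVX is highest for every gene except Tlr8, in which WT vehicle (26.6 and 26.7 FPKM) is highest.

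In WT cells 6 of the 8 genes fell after the agonists and none rose, where 57.9% of all genes tested were called, 30.8% higher and 27% lower. Tlr8 fell the most (-0.90 ± 0.05 SE, adjusted p = 2.07e-07). The 2 receptors of the ligands given fell less, Tlr9 by 0.46 ± 0.03 on the log2 scale (adjusted p = 2.11e-06) and Tlr7 by 0.32 ± 0.04 (adjusted p = 5.29e-05), close to Tlr13 (-0.29 ± 0.05, adjusted p = 0.000405). Both chaperones fell too, Unc93b1 (-0.22 ± 0.03) and Cnpy3 (-0.15 ± 0.03, adjusted p = 0.00116). Tlr3 (-0.10 ± 0.06, 95% interval -0.24 to 0.04) and Slc15a4 (0.03 ± 0.03, interval -0.04 to 0.11) did not pass. The call of Tlr3 changed when the libraries were scaled to the same sum (-0.17) or when WT vehicle replicate 1 was left out (-0.19), in both of which it passed. The median difference was -0.26 over the 8 genes and 0.02 over all genes tested. In bulk RNA fewer cells of a type and less RNA per cell cannot be told apart, here and in all comparisons that follow.

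In KO the same count held, 6 lower and 0 higher, where 51.3% of all genes were called, 25.9% higher and 25.3% lower. Tlr8 (-0.52 ± 0.05), Tlr9 (-0.35 ± 0.03), Tlr13 (-0.34 ± 0.05), Unc93b1 (-0.19 ± 0.03) and Tlr7 (-0.17 ± 0.04) fell. Cnpy3 was at the edge of the test (-0.08 ± 0.03, adjusted p = 0.0414). It no longer passed without the filter on low values (adjusted p = 0.0786), with plain limma settings, neither trend nor robust (0.0996), without KO agonist replicate 1 (0.166) or 2 (0.0571), without KO vehicle replicate 2 (0.261), or without any 1 of the 4 WT libraries (0.0530 to 0.0536). Tlr3 (-0.13 ± 0.06) and Slc15a4 (-0.02 ± 0.03) did not pass.

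ERKO OVX had 6 genes lower and 0 higher, where 37.5% of all genes were called, 18.3% higher and 19.2% lower. The falls were of Tlr8 (-0.46 ± 0.07), Tlr13 (-0.37 ± 0.07), Tlr7 (-0.36 ± 0.05), Tlr9 and Cnpy3 (-0.26 ± 0.05 and -0.26 ± 0.04) and Unc93b1 (-0.17 ± 0.04, adjusted p = 0.00900). With libraries scaled to the same sum, Unc93b1 (-0.09) no longer passed and Slc15a4 (0.07 as deposited, 0.15 when scaled) did. Tlr3 was at 0.02 ± 0.09.

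Ex3a OVX differed in which genes moved, with 5 lower, Tlr8 (-0.53 ± 0.07), Tlr7 (-0.31 ± 0.05), Tlr9 (-0.24 ± 0.05), Tlr13 (-0.21 ± 0.07) and Slc15a4 (-0.19 ± 0.05, adjusted p = 0.0108), and 1 higher, Cnpy3 (0.18 ± 0.04, adjusted p = 0.00588). Of all genes, 37.3% were called, 19.1% higher and 18.2% lower. Unc93b1 (0.01 ± 0.04, interval -0.08 to 0.10) and Tlr3 (-0.09 ± 0.09) did not pass. Tlr13 lost its call without the filter on low values (adjusted p = 0.0937) and with plain limma settings (0.0608). Tlr7, Tlr8, Tlr9 and Tlr13 were thus lower after the agonists in all 4 arms, and Tlr3 passed in none as deposited. The share of all genes lower in all 4 arms was not counted. Macrophage and monocyte markers were mostly lower after the agonists too, 7 of 8 in WT and 6 of 8 in each of the other arms, and their part in these falls was not tested.

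**Figure D2:**
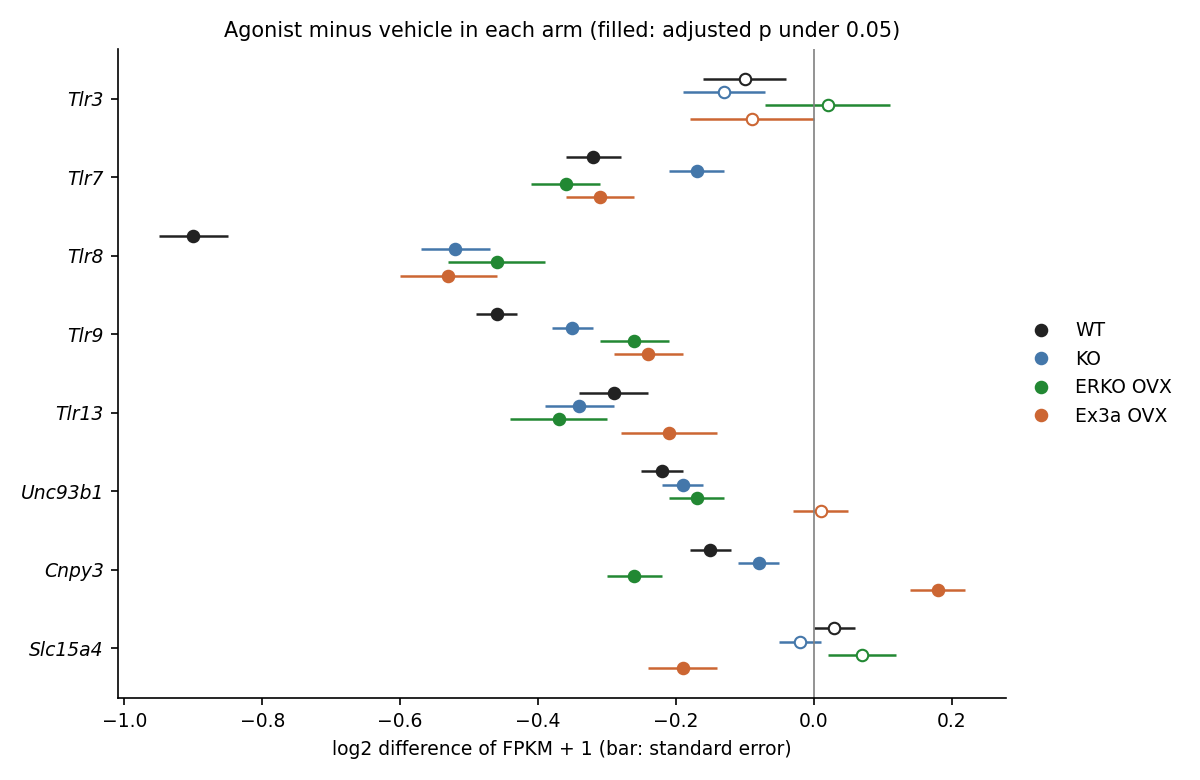
Log2 difference of FPKM + 1, agonist minus vehicle (horizontal axis; bars are SE), for the 8 genes in WT (black), KO (blue), ERKO OVX (green) and Ex3a OVX (orange); filled points have an adjusted p under 0.05. Tlr8 in WT lies furthest to the left at -0.90, and Cnpy3 in Ex3a OVX (0.18) is the only filled point above 0.

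Whether the response itself differed between arms was tested directly. Between KO and WT, 1 of the 8 genes differed, Tlr8, whose fall was 0.38 ± 0.07 smaller in KO (adjusted p = 0.0110), where 6.95% of all genes differed, 2.3% with a more positive and 4.65% with a more negative response. Starting from 26.7 FPKM in WT and 15.7 in KO, the means converged to 13.9 and 10.6. This call was lost without the filter on low values (difference 0.38, adjusted p = 0.0661), and with libraries scaled to the same sum Tlr7 (0.23) and Cnpy3 (0.15) passed beside it. Between Ex3a OVX and ERKO OVX, 3 genes differed, where 31.3% of all genes did (16.6% more positive, 14.7% more negative). Cnpy3 responded 0.44 ± 0.05 more positively in Ex3a OVX (adjusted p = 0.000523), Unc93b1 0.18 ± 0.06 more positively (adjusted p = 0.0357) and Slc15a4 more negatively (-0.26 ± 0.07, adjusted p = 0.0149). The Unc93b1 difference missed the test without the filter (adjusted p = 0.0793), with plain limma settings (0.0929), without either WT vehicle library (0.0564) and on the equal-sum scale (0.04, adjusted p = 0.575). The 5 receptors did not pass this test, with differences from -0.11 ± 0.12 in Tlr3 to 0.15 ± 0.09 in Tlr13, which did pass when the 16 libraries entered singly (adjusted p = 0.0331) and with the replicate number as a block (0.0385).

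Between unoperated arms 4 receptors were lower in KO and 1 was higher. In KO vehicle cells Tlr13 (-0.88 ± 0.05, adjusted p = 1.91e-07), Tlr8 (-0.73 ± 0.05), Tlr7 (-0.52 ± 0.04) and Tlr3 (-0.22 ± 0.06) were lower than in WT, and Tlr9 was higher (0.44 ± 0.03, adjusted p = 3.18e-06). Cnpy3 (-0.12 ± 0.03) and Unc93b1 (-0.09 ± 0.03) were lower and Slc15a4 (0.13 ± 0.03) higher, each by a little, so all 8 passed, where 60.3% of all genes did, 31.5% higher and 28.7% lower. The median of the 8 was -0.17 and that of all genes 0.01. Without KO vehicle replicate 1 the count was 5, with Tlr3 (-0.21), Unc93b1 (-0.06) and Slc15a4 (0.11) no longer past the test. Tlr3 (-0.12) and Unc93b1 (-0.08) were lost without WT vehicle replicate 2, and Slc15a4 (0.09) without WT vehicle replicate 1. Plain limma settings ended the Unc93b1 call (adjusted p = 0.0513).

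With agonists Tlr9 was again higher in KO (0.55 ± 0.03, adjusted p = 7.69e-07), and Tlr13 (-0.92 ± 0.05), Tlr7 (-0.37 ± 0.04), Tlr8 (-0.35 ± 0.05) and Tlr3 (-0.25 ± 0.06) were lower, 5 of 8 where 54.8% of all genes were called, 27.2% higher and 27.6% lower. Unc93b1 (-0.06, interval -0.12 to 0.00), Cnpy3 (-0.05, interval -0.11 to 0.01) and Slc15a4 (0.08, interval 0.00 to 0.15) did not pass. Slc15a4 passed on the equal-sum scale (0.17) and with median-ratio scaling (0.09), Unc93b1 with 16 single libraries (adjusted p = 0.0327), and the Tlr3 call was lost without WT agonist replicate 1 (-0.20, adjusted p = 0.0579). The KO and WT libraries also differed in markers of other cells. Of 8 macrophage and monocyte markers (Csf1r, Mertk, Fcgr1, C1qa, C1qb, C1qc, Ly6c2 and Cd68), 7 were lower and 1, Ly6c2, higher in KO under both treatments. Their summed levels were 1484 to 1520 FPKM in WT vehicle and 740.1 to 751 in KO vehicle. Of 7 neutrophil markers 4 were higher in KO vehicle, and of 8 tested markers of CD11c-high dendritic cells 6 were higher and 1 lower. C1qa was at 110.3 and 115 FPKM in WT vehicle and at 3.09 and 3.45 in KO vehicle. The part of such cells in the receptor differences was not tested.

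Between ovariectomized arms vehicle cells of Ex3a OVX had all 8 genes above ERKO OVX, where 55.2% of all genes were called, 29.2% higher and 26.1% lower. Tlr9 differed the most (1.52 ± 0.05, adjusted p = 7.81e-09), followed by Tlr3 (1.09 ± 0.09), Tlr8 (1.09 ± 0.07) and the chaperone Unc93b1 (0.99 ± 0.04, adjusted p = 2.97e-08). Tlr7 (0.62 ± 0.05), Tlr13 (0.58 ± 0.07), Cnpy3 (0.46 ± 0.04) and Slc15a4 (0.36 ± 0.05) differed less. The median was 0.80 over the 8 genes and 0.02 over all genes. These calls held in every alternative run.

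With agonists 7 of the 8 were higher, where 62.7% of all genes were called, 32.1% higher and 30.6% lower: Tlr9 (1.54 ± 0.05), Unc93b1 (1.16 ± 0.04), Tlr8 (1.02 ± 0.07), Tlr3 (0.98 ± 0.09), Cnpy3 (0.90 ± 0.04), Tlr13 (0.73 ± 0.07) and Tlr7 (0.67 ± 0.05). Slc15a4 did not pass (0.10 ± 0.05, interval -0.01 to 0.20), but did when the 16 libraries entered singly (adjusted p = 0.0165) and with the replicate number as a block (adjusted p = 0.0213). On the equal-sum scale the median of all genes in this comparison moved to -0.12 and the same 7 passed. Markers of other cells differed here as well. Of the 8 macrophage and monocyte markers 7 were higher in Ex3a OVX and none lower under both treatments, with summed levels of 4030 to 4048 FPKM in ERKO OVX vehicle and 5998 to 6044 in Ex3a OVX vehicle. Ly6c2 held most of both sums, 2747 and 2729 against 3647 and 3689 FPKM. All 6 mast cell and basophil markers were lower in Ex3a OVX (116 to 118 against 53.3 to 53.8 FPKM summed with vehicle), while of 7 neutrophil markers 3 were lower and 1, Ltf, was higher with vehicle, and 4 were lower with agonists. S100a8 (924 and 926 against 171 and 175 FPKM with vehicle) and S100a9 (292 and 289 against 59.2 and 57.3, not past the test, adjusted p = 0.0727) made up most of the neutrophil sum, 1292 against 283 to 285 FPKM. Of 8 tested markers of CD11c-high dendritic cells 4 were higher and 3 lower with vehicle, and 3 higher and 3 lower with agonists. Both T and NK cell markers tested, and the 1 B cell marker tested, were higher under both treatments. Of 5 plasmacytoid dendritic cell markers tested 2 were higher with vehicle and 3 with agonists, and none was lower. Of 3 cDC1 markers tested 2 were higher and 1 lower with vehicle, and 3 were higher with agonists. Their part in the differences was not tested.

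**Figure D3:**
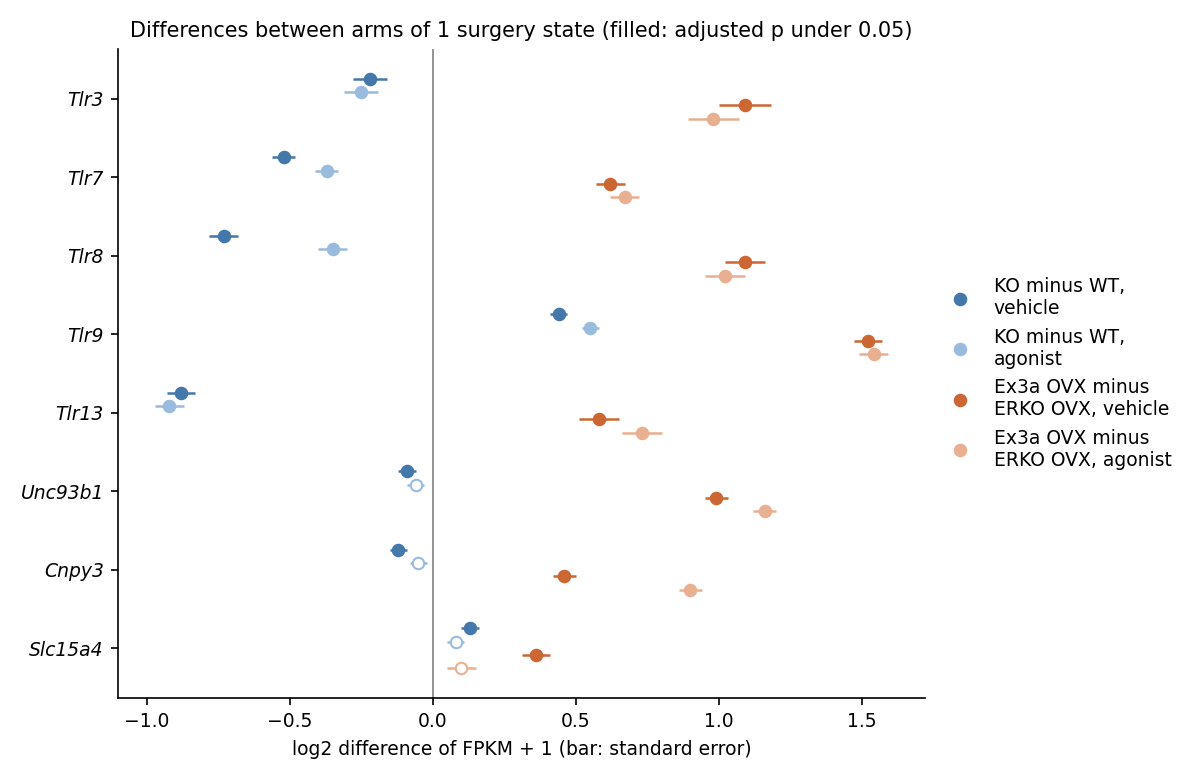
Log2 difference of FPKM + 1 (horizontal axis; bars are SE) between arms of the same surgery state for the 8 genes, KO minus WT in blue and Ex3a OVX minus ERKO OVX in orange, with vehicle in the darker and agonists in the lighter shade; filled points have an adjusted p under 0.05. Tlr9 is above 0 in all 4 comparisons (0.44, 0.55, 1.52 and 1.54), while Tlr7, Tlr8, Tlr13 and Tlr3 lie below 0 in KO minus WT and above 0 in Ex3a OVX minus ERKO OVX.

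ERKO OVX and KO carry ERα short by their source labels. Surgery, pellet, depth and the run of library numbers differ together between them and cannot be told apart. Of all genes, 80.9% were called with vehicle (41% higher, 39.9% lower) and 78.7% with agonists (40.1% higher, 38.5% lower). With vehicle Tlr13 (1.02 ± 0.06), Tlr3 (0.73 ± 0.08), Tlr7 (0.71 ± 0.05), Slc15a4 (0.54 ± 0.04) and Cnpy3 (0.25 ± 0.03) were higher in ERKO OVX, and Tlr9 (-1.07 ± 0.04, adjusted p = 6.1e-09) and Tlr8 (-0.84 ± 0.06, adjusted p = 4.74e-07) lower. Unc93b1 (0.05 ± 0.03, adjusted p = 0.167) did not pass, but did with 16 single libraries (0.0371) and with the block (0.0388). With agonists Tlr13 (0.99 ± 0.06), Tlr3 (0.88 ± 0.08), Slc15a4 (0.63 ± 0.04) and Tlr7 (0.52 ± 0.05) were higher, and Tlr9 (-0.98 ± 0.04) and Tlr8 (-0.78 ± 0.06) lower. Unc93b1 (0.08 ± 0.03) just missed the threshold and Cnpy3 (0.06 ± 0.03, adjusted p = 0.109) did not pass. Unc93b1 passed with a pseudocount of 5 (0.0496), with median-ratio scaling (0.0441), with 16 single libraries (0.00399), with the block (0.00449), and without ERKO OVX agonist replicate 2 (0.0316), KO agonist replicate 2 (0.0266) or KO vehicle replicate 1 (0.0371) or 2 (0.0372). Cnpy3 passed with 16 single libraries (0.0309), with the block (0.0330) and without ERKO OVX agonist replicate 1 (0.0379). The neighbours Tlr7 and Tlr8 thus differed in opposite directions between these arms under both treatments. FPKM sums were 481738 to 522287 in unoperated and 612322 to 696321 in ovariectomized libraries, and scaling them to the same sum moved the median of all genes to -0.34 with vehicle and -0.26 with agonists. On that scale Unc93b1 (-0.35 and -0.23) and Cnpy3 (-0.16 and -0.25) were lower in ERKO OVX and the other 6 kept their direction and call. Neutrophil markers (7 of 7) and mast cell and basophil markers (6 of 6) were higher in ERKO OVX under both treatments. Of 8 tested markers of CD11c-high dendritic cells 4 were higher and 4 lower under both treatments. Macrophage and monocyte markers summed to 740.1 to 751 FPKM in KO vehicle and 4030 to 4048 in ERKO OVX vehicle. Ly6c2 held most of the ERKO OVX sum (2747 and 2729 FPKM, against 188 and 189 in KO vehicle). With vehicle 5 of 8 markers were higher and 2, C1qa and C1qb, lower. With agonists 6 were higher and 1, C1qb, lower. The part of these cells in the differences was not tested.

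Ratios of 2 genes within a library do not depend on how libraries are scaled, and they are given as a description. The Tlr9 to Tlr7 ratio of FPKM values was 0.976 to 1.18 in the 4 KO libraries, 0.617 to 0.666 in Ex3a OVX, 0.497 to 0.574 in WT and 0.293 to 0.331 in ERKO OVX. Vehicle and agonist libraries together, the 4 arms did not overlap in this ratio, and the 2 arms labelled ERα short by source lay at its opposite ends. Surgery, pellet, depth and the run of library numbers differ together between unoperated and ovariectomized libraries. The Tlr8 to Tlr7 ratio did not overlap between them, with 0.835 to 1.28 in the 8 unoperated libraries and 0.298 to 0.518 in the 8 ovariectomized ones. It was lower with agonists in WT (0.853 and 0.836 against 1.28 and 1.28), KO (0.835 and 0.868 against 1.08 and 1.12) and Ex3a OVX (0.433 and 0.424 against 0.518 and 0.503), with no overlap, and lower without overlap in ERKO OVX (0.298 and 0.332 against 0.335 and 0.365).

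The summed receptors were set against Unc93b1, the chaperone that moves them. The 5 receptors summed to 116 and 119 FPKM in WT vehicle, 78.5 and 78.04 in KO vehicle, 106 and 104 in ERKO OVX vehicle and 182 and 181 in Ex3a OVX vehicle. Unc93b1 per unit of summed receptor FPKM was 1.51 and 1.50, 2.06 and 2.16, 1.61 and 1.66, and 1.87 and 1.88 in these groups. Agonist libraries held 1.73 and 1.77, 2.41 and 2.31, 1.89 and 1.84, and 2.26 and 2.29. The ratio was higher with agonists in all 4 arms without overlap of the libraries. Of the 5 receptors, Tlr7, Tlr8, Tlr9 and Tlr13 fell in every arm, so any gene that fell less than the sum gives a higher ratio. Other genes were not set against the sum. Tlr13 made up 46.8 to 52.1% of the summed receptor FPKM in WT, 37.1 to 38.7% in KO, 57.3 to 58.2% in ERKO OVX and 50.5 to 52.4% in Ex3a OVX.

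**Figure D4:**
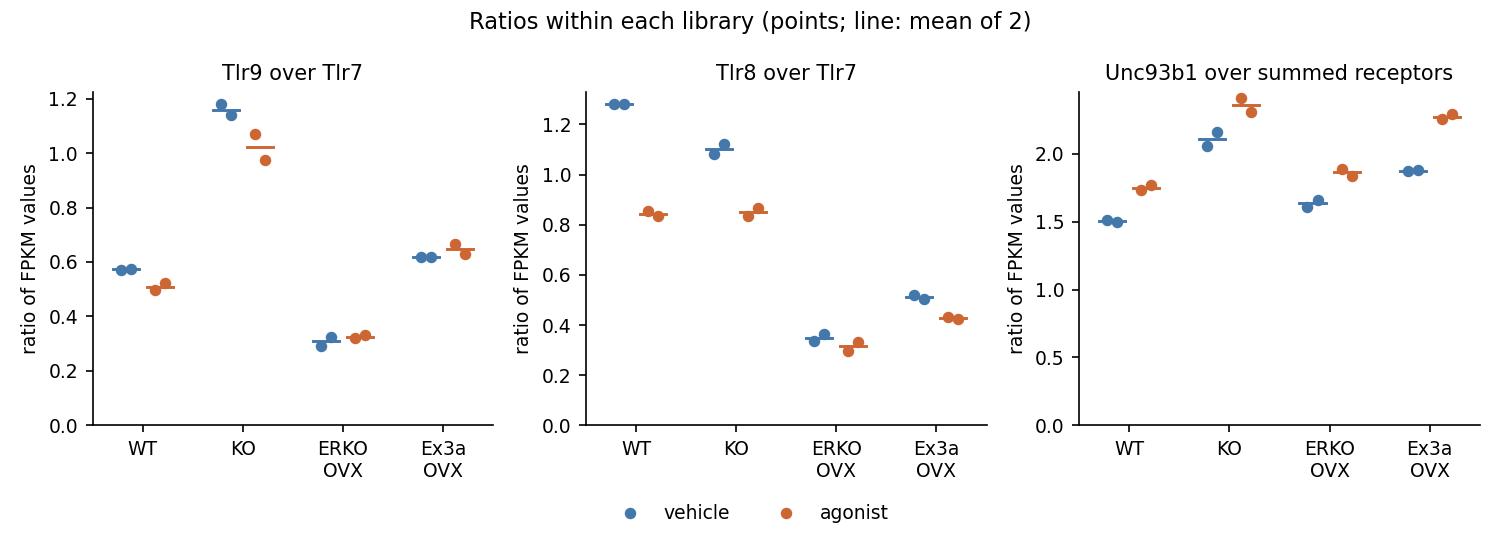
Ratios of FPKM values within each library (vertical axes, from 0), by arm, with vehicle in blue and agonist in orange; points are libraries and lines the mean of 2. The Tlr9 to Tlr7 ratio is highest in KO (0.976 to 1.18) and lowest in ERKO OVX (0.293 to 0.331), and Unc93b1 over the summed receptors is higher with agonists in each arm.

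Lists of pathway genes around the receptors are described by the count past the test among those tested. Of 22 trafficking and processing partners, which include the AP-3 adaptor subunits and the proteases that cut the receptor ectodomains, 11 fell and 6 rose in WT after the agonists (median -0.08), where 27% of all genes were lower and 30.8% higher. The largest changes were falls of Atp6v0d2 (-0.82 ± 0.03, 204 to 115 FPKM), a subunit of the proton pump that acidifies endosomes, Arl8b (-0.46 ± 0.03), a small GTPase of lysosome transport, and Lgmn (-0.43 ± 0.02), the protease legumain. Of 12 ligand supply and nuclease genes 7 fell and 3 rose (median -0.21), led by the IgG receptor Fcgr1 (-1.27 ± 0.08, 18.8 to 7.21 FPKM) and the nucleic acid exonuclease Pld4 (-1.07 ± 0.03, 169.9 to 80.2 FPKM), both lower, and the co-receptor Cd14 (0.96 ± 0.02, 371 to 724 FPKM), which was higher. Fcgr1 is also on the macrophage marker list, of which 7 of 8 members fell in WT after the agonists. The median over all genes was 0.02.

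Of 24 adaptors, kinases and transcription factors below the receptors 16 rose, 2 fell and 6 did not pass in WT after the agonists (median 0.19), again beside 30.8% higher and 27% lower among all genes. Irak3, an inhibitory kinase homologue of the pathway, rose the most (1.82 ± 0.04, 14.5 to 53.8 FPKM), followed by the ubiquitin-editing inhibitor Tnfaip3 (1.13 ± 0.03) and the kinase Ikbke (0.84 ± 0.02). The 2 that fell were the interferon regulatory factors Irf5 and Irf7. The 7 other TLR genes tested encode surface receptors except for Tlr11, whose product is endosomal. Of the 7, 4 rose, Tlr11 among them, and 3 fell (median 0.39), with Tlr2 (1.37 ± 0.03, 39.4 to 103 FPKM), the receptor of bacterial lipoproteins, and its partner Tlr1 (1.31 ± 0.05) higher and Cd180 (-0.98 ± 0.04), a TLR4-like receptor, lower. Of the 24 signalling genes, Irak3, Tnfaip3, Ikbke, Nfkb1, Ikbkb, Tab2 and Map3k7 rose in all 4 arms, and Irf5 fell in all 4. The share of all genes moving alike in all 4 arms was not counted.

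In KO against WT with vehicle, 15 of the 22 trafficking genes were lower and 2 higher (median -0.21), and 9 of the 12 ligand supply genes were lower and 2 higher (median -0.38), against a median of 0.01 over all genes, of which 28.7% were lower and 31.5% higher. Signalling genes were mostly higher, 16 of 24 with 5 lower (median 0.13). The other TLR genes had 4 of 7 lower and 2 higher, Tlr2 and the endosomal Tlr11.

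In Ex3a OVX against ERKO OVX with vehicle, where the 8 endosomal genes were higher, 6 of the 7 other TLR genes, all 6 of them surface receptors, were higher too and none lower (median 0.66), where 29.2% of all genes were higher and 26.1% lower. They included Cd180 (0.90 ± 0.05), Tlr1 (0.84 ± 0.08) and the endotoxin receptor Tlr4 (0.69 ± 0.05, 23.8 to 39.0 FPKM). Trafficking genes had 10 of 22 higher and 6 lower (median 0.10). Of the 5 endosomal proteases in this list 4 were higher, Lgmn (1.28 ± 0.03, 177 to 431 FPKM) and the cathepsin genes Ctsl (1.18 ± 0.04, 1516 to 3440 FPKM), Ctss (0.80 ± 0.04) and Ctsb (0.74 ± 0.03), and the cathepsin K gene Ctsk (-1.36 ± 0.05, 91.7 to 35.2 FPKM) was lower. Ligand supply genes had 6 of 12 higher and 3 lower (median 0.22), with Fcgr1 (2.58 ± 0.11, 26.6 to 164 FPKM) and Pld4 (0.96 ± 0.05) higher and the ribonuclease Rnase2a (-1.48 ± 0.03) lower. Signalling genes had 9 of 24 higher and 8 lower (median 0.02), with Ikbke (1.50 ± 0.03), Irf7 (0.87 ± 0.03) and Irf8 (0.78 ± 0.04) higher. The median over all genes was 0.02.

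The labelled cell type was checked against markers. Itgax, which encodes CD11c, was at 97.7 to 115 FPKM in unoperated and 86.0 to 155 in ovariectomized libraries, and H2-Aa of MHC class II at 609.9 to 856 and 1865 to 2873. In the same order H2-Ab1 was at 208 to 298 and 1192 to 1947 FPKM, and Cd74 at 3614 to 4204 and 6459 to 8403. Ccr7 went the other way (1120 to 2205 and 205 to 508 FPKM), as did Dpp4 (1.28 to 3.13 and 0.374 to 0.818). Flt3 was at 1.56 to 4.01 and 1.12 to 1.65 FPKM. The dendritic cell factor Zbtb46 was at 13.1 to 27.8 and 2.65 to 4.69 FPKM, and Cd209a, a marker of dendritic cells grown from monocytes, was at or near 0 throughout (at most 0.0309 FPKM). Of 8 markers of plasmacytoid dendritic cells, the cells best known for TLR7 and TLR9, 2 to 4 were at 1 FPKM or more in each group. Siglech, which defines these cells, was at 0 in all unoperated libraries and at most 0.107 FPKM in the ovariectomized ones, while Bst2 (422 to 1457 FPKM) and Tcf4 (3.75 to 6.13), which other cells express too, were present in every library. Of 6 markers of cDC1, cells in which TLR3 is typically found, Batf3 (22.3 to 73.5 FPKM) and Irf8 (46.0 to 103) were present throughout and Cadm1 was over 1 FPKM in Ex3a OVX alone (1.53 to 2.95). Xcr1 (at most 0.769 FPKM), Clec9a (at most 0.315) and Itgae (at most 0.511) were under 1 FPKM in every library. B cell markers, 7 in all, summed to 0.285 to 0.473 FPKM in unoperated and 3.53 to 9.001 in ovariectomized libraries, where Cd79b (2.17 to 7.21 FPKM) was the 1 marker over 1 FPKM. T and NK cell markers, 5 in the table, summed to 0.265 to 0.704 and 3.36 to 24.4 FPKM.

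The genes whose 8 group means of log2(FPKM + 1) were most like those of each member are given as a description, since the points share libraries, arms and depth. For Tlr3 they included Ms4a6b (Pearson r = 0.998) and Pydc4 (0.997), and for Tlr7 they were Plxnb2 (0.995), Nagpa (0.989) and Mettl25 (0.986). Tlr8 was most like Mknk1 (0.986), Kcnk13 (0.978) and Oas2 (0.975), and Tlr9 like Cutc (0.961), Srgap2 (0.961) and Exosc7 (0.952). The highest r of Tlr9 was the lowest of the 8 members. Tlr13 was followed by Ubxn8 (0.988), Mgat2 (0.987) and Cers2 (0.986). Parp10 was among the 3 nearest genes of both chaperones, Unc93b1 (0.993, with P2rx4 at 0.992 and Ccdc173 at 0.989) and Cnpy3 (0.985, with Drap1 at 0.990 and Alkbh7 at 0.984). Slc15a4 was most like Znhit3 (0.994), Tmed1 (0.992) and Mitd1 (0.991). Plxnb2 spanned 0.446 to 8.12 FPKM, so the likeness to Tlr7 is between genes of different level.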

How the data were processed

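The authors' deposited table holds FPKM values for 24001 genes in 16 libraries. Per the submitters' processing notes, cutadapt, FastQC, STAR, HTSeq, DESeq2 and mm10 were used. No source used here names the step that made FPKM. FPKM keeps no fragment counts, and 43.6 to 55% of low values lay within 0.1 of a whole fragment at the estimated depth, so no count test was run. Small RNA rows (1229) were left out, 27 symbols turned into dates were not named, and 5 zeros in genes above 5 FPKM elsewhere were taken as missing. Genes with 1 FPKM or more in 2 libraries were tested. limma 3.58.1 (R 4.3.3, trend and robust) was fitted to log2(FPKM + 1), 1 coefficient per group, with Benjamini-Hochberg adjustment and a threshold of 0.05. Same-group variance over sampling variance was 1.1 to 1.46 in ovariectomized pairs, which were averaged, and 3.51 to 10.8 in unoperated ones for genes of at least 5000 estimated fragments, and 0.925 to 1.32 against 1.91 to 3.22 for those of at least 1000. That left 12 samples and 4 residual degrees of freedom. The fit was run on data simulated with the same noise in every library, which cannot show how ovariectomized groups vary. Members and lists were chosen with earlier results of these data known. From each pathway list the 3 largest changes past the test in the WT response and in Ex3a OVX against ERKO OVX with vehicle were named, and for each member the 3 genes of highest r. Of these genes and the markers, 2 are not reported here. Other names, such as Irf5, C1qa and the marker genes, were given after their values were seen. Alternatives were other pseudocounts, scalings, filters, limma settings, single libraries, a replicate block and leaving out each library.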

Additional observations from a re-analysis of the deposited data

Results flagged for a closer look

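The agonist response of 4 of the 8 genes differed between arms by a test of the difference itself. Of all genes tested, 6.95% differed between KO and WT and 31.3% between Ex3a OVX and ERKO OVX. The calls of Tlr8 and Unc93b1 did not hold in every alternative run. Tlr8 fell less in KO than in WT, with a difference of 0.38 ± 0.07 (limma adjusted p = 0.0110). Between Ex3a OVX and ERKO OVX the response differed for Cnpy3 (0.44 ± 0.05, limma adjusted p = 0.000523), which rose in 1 arm and fell in the other, for Unc93b1 (0.18 ± 0.06, limma adjusted p = 0.0357) and for Slc15a4 (-0.26 ± 0.07, limma adjusted p = 0.0149). If the genotype field of the labels held in place of the source labels, treatment and allele would change together in KO and ERKO OVX, and these differences would include both.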

How the results depend on the processing

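Over 12 comparisons and 8 genes, 96 results were recomputed. A result counted as kept if it stayed on its side of the threshold and, where it passed in either fit, kept its direction. For results that passed in neither fit, direction was not counted. All 96 were kept with a pseudocount of 0.1, 95 with 5 and 94 with median-ratio scaling. Without the filter on low values 92 were kept, and 92 without trend and robust fitting. Leaving out 1 library at a time kept 1514 of 1536. Scaling to the same sum kept 85. Among results that passed before or after scaling, 4 reversed, all in ERKO OVX against KO: Unc93b1 (-0.352 with vehicle, -0.231 with agonists) and Cnpy3 (-0.155 and -0.248). The number of genes past the test in KO against WT with vehicle was 5 to 8 over the libraries left out. The number whose response differed between KO and WT was 0 without the filter and 3 on the equal-sum scale, against 1, and over all genes it was 789, 404 without the filter and 1116 on the equal-sum scale. The equal-sum scale also moved the share of higher calls among all called genes from 53.3 to 32.5% in the WT response, 48.9 to 70.2% in that of ERKO OVX, 51.1 to 34.0% in that of Ex3a OVX, 49.6 to 71.3% in KO against WT and 51.2 to 30.7% in Ex3a OVX against ERKO OVX with agonists, 50.7 to 22.6% and 51.0 to 26.5% in ERKO OVX against KO with vehicle and agonists, and 33.1 to 74.8% and 53.2 to 21.7% in the differences of response. Same-numbered libraries did not deviate together (r from -0.0737 to 0.0742 over 28 pairs of groups, 0 over 0.1), so no pairing by number was seen. Ovariectomized pairs differed by about sampling noise, so the check could not show pairing there. With the replicate number as a block among 16 single libraries, 90 of the 96 results were kept, 6 newly passed (the same number as with 16 single libraries and no block), none was lost, and the number past the test was 8 in ERKO OVX against KO with agonists, against 6. Depth in ovariectomized libraries, about 17.2 to 23.1 M fragments, and the lack of a replicate check limit small differences there.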
